A study of Mus musculus with 6 samples.

Results

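NF-kB is a family of dimeric transcription factors, and the 10 genes described here encode its subunits and the proteins that hold it in check. They were chosen by symbol, 10 of the 23725 genes in the deposited tables, measured in lymph node regulatory T cells (Tregs) of the C57Bl/6 strain. 3 libraries (replicates 1 to 3) came from MOG KO mice, which lack myelin oligodendrocyte glycoprotein (MOG) in the whole animal, and 3 from WT mice. Both genotypes had been immunised with MOG, which sits on the outside of myelin sheaths. Each library was made from 500 cells and amplified by 15 PCR cycles, without molecular identifiers. The labels give no age, sex or gating of the cells, and leave unsaid whether replicates are different mice. The p-values therefore reflect the scatter of these libraries, which may be technical in part.

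In resting cells NF-kB dimers are kept in the cytoplasm by inhibitors of the IkB type. Signals from the antigen receptor, CD28 and receptors of the TNF family lead an IkB kinase to mark these inhibitors for destruction, and the freed dimers enter the nucleus. The canonical branch uses Rela, Rel and the p50 product of Nfkb1, and the alternative branch pairs Relb with the p52 product of Nfkb2. In T cells Rel is known for its part in switching on Foxp3 during Treg development, and Rela for keeping mature Tregs functional. Several of the inhibitor genes are themselves switched on by NF-kB, which closes a negative feedback loop.

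That feedback is read from the DNA before such inhibitor genes, so the promoters of Nfkbia and Nfkbie, which hold the binding letters of NF-kB, are shown. Those of 2 subunit genes are shown beside them, Rel, which holds these letters too, and Rela, which does not. Each line is RefSeq sequence of GRCm38.p6, written 5′ to 3′ on the strand of the gene, and ends at the base before the RefSeq start or, for Rel and Rela, before the outermost start that GENCODE M21 annotates. Capitals mark a match to the kappaB consensus on either strand.
Nfkbia (chr12:55492648-55492897, minus strand): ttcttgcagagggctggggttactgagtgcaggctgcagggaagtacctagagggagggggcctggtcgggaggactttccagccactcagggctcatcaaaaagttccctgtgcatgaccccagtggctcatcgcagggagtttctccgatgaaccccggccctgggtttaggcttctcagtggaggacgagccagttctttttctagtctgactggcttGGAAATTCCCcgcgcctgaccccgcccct
Rel (chr11:23770971-23771219, minus strand): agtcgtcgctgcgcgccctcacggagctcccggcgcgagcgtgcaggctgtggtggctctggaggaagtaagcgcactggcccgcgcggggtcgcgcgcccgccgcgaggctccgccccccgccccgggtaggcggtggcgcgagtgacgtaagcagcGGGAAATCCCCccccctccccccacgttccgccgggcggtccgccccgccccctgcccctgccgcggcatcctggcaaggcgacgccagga
Nfkbie (chr17:45555450-45555699, plus strand): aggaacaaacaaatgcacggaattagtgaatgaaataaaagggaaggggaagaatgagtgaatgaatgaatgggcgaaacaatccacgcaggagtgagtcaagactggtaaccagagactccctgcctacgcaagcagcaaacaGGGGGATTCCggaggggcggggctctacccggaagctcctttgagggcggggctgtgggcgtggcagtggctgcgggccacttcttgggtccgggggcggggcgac
Rela (chr19:5637291-5637482, plus strand): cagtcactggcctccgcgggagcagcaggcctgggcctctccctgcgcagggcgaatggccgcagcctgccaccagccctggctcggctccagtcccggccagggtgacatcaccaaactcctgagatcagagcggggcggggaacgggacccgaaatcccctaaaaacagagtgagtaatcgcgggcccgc

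The consensus was searched on both strands in the 250 bases before each RefSeq start, and matches of the strands or of shifted frames may overlap. Of 8 members with an entry, 5 held a match (Nfkbia, Nfkb2, Rel, Nfkbie and Tnfaip3), against 8.23% of 27025 genes with an entry. A gene with several starts, as Nfkb2 and Tnfaip3 have, has more chances to match. By window, the share with a match was 7.25% of 32851. The match read GGGAATTTCC in Nfkbia, on the strand opposite to the gene, and GGGGGATTCC in Nfkbie. Nfkb2 held GGGAATTCCC and GGGGCTTTCC before the first of its 3 listed starts, GGGACATTCC on the opposite strand before the next, and GGGACTTTCC before the last. Tnfaip3 held GGGACACCCC before the first of its 2 starts and, on the opposite strand, GGGGATTTCC. Rela, Nfkbib and Bcl3 held none in this window, and Relb and Nfkb1 were not in the promoter table. The Nfkbib window lies wholly inside the gene as GENCODE M21 annotates it, so the DNA before its outermost start was not searched. The 3 Nfkb2 windows also lie inside the annotated gene, as do the Tnfaip3 windows but for 3 bases of the first. A match is a stretch of letters and says nothing about binding in these cells.

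In the count table, Rela and Nfkbia were read in all 6 libraries, and the other 8 members were read at a high level in some libraries and at or near 0 in others. Values are reads-per-million (RPM), and 10 RPM or more is called present. Of 60 values (10 members in 6 libraries), 38 were at 30 RPM or more, 21 were under 3 RPM and 0 lay from 3 to 10 RPM. The members were present in 17 of 30 values in MOG KO and in 22 of 30 values in WT. Among the 7909 genes present in at least 1 library, those shares were 43.2% in MOG KO and 46.6% in WT. Rela and Nfkbia were present in all 6 libraries, as were 8.9% of these 7909 genes. Bcl3 and Nfkb2 were present in 5, Nfkb1 and Tnfaip3 in 4, Relb in 3, and Rel, Nfkbib and Nfkbie in 2. The members with a kappaB match were spread over this range, with Nfkbia in 6 libraries, Nfkb2 in 5, Tnfaip3 in 4 and both Rel and Nfkbie in 2.

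**Figure D1:**
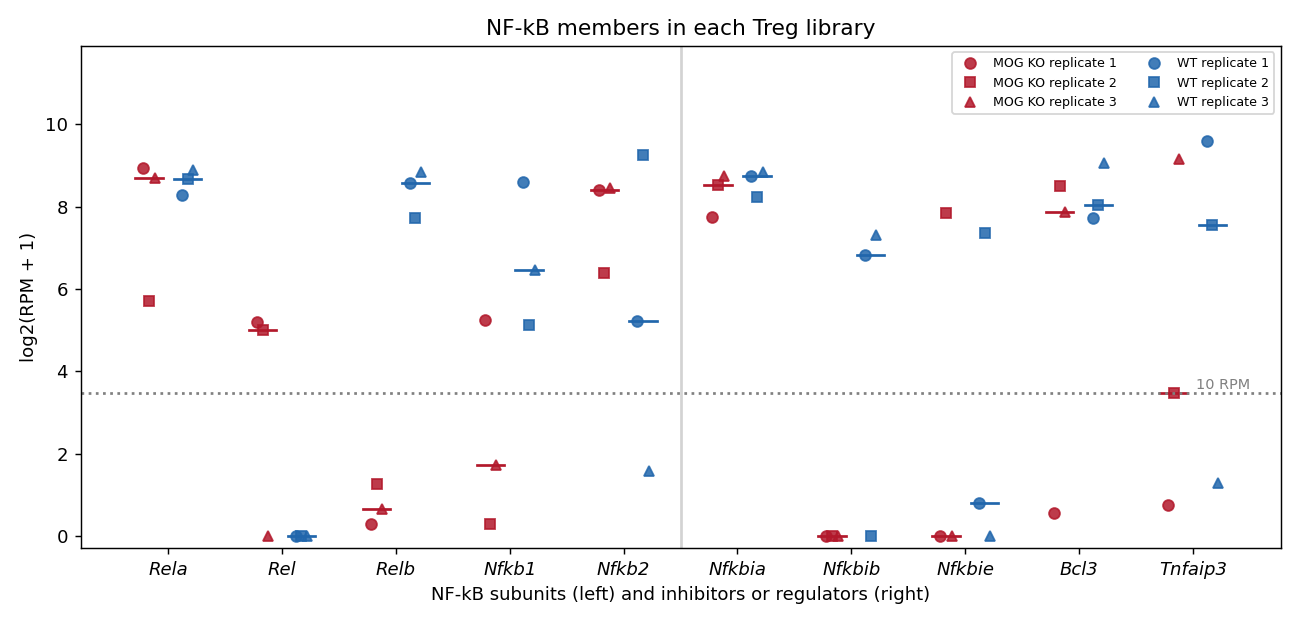
RPM of the 10 members on a log2(RPM + 1) scale, with 1 point per library, MOG KO in red and WT in blue, and a bar at the median of each genotype. Relb is at 1.38 RPM or less in the 3 MOG KO libraries and at 211 RPM or more in the 3 WT libraries, whereas Rela and Nfkbia lie above 10 RPM in all 6.

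Total counts ran from 3450623 to 4361315 in MOG KO and from 2717969 to 4472549 in WT. A library's floor, the RPM of 3 counts, which is the most that a count of 0 allows, was 0.688 to 0.869 RPM in MOG KO and 0.671 to 1.1 RPM in WT. It covers counting error only. Tregs are defined by Foxp3, and its RPM was 476, 444 and 326 in MOG KO and 690.2, 400 and 8.22 in WT. The label of the cells was read against 8 Treg and T cell markers, of which 6 were present in all 6 libraries. Foxp3 and Cd3g fell short of that in WT replicate 3, at 8.22 and 1.42 RPM, and 2701 genes were present in that library, fewer than the 3265 to 4440 of the others. All 6 markers of CD8 T and NK cells had 0 counts in every library. The 8 myeloid markers summed to 5.78 to 13.9 RPM in MOG KO and 5.59 to 16.6 RPM in WT. The 6 markers of lymph node stroma summed to 31.2 to 461 RPM in MOG KO and 1.98 to 95.3 RPM in WT. Of these, Pecam1, an adhesion molecule, had 461, 25.2 and 47.2 RPM in MOG KO and 89.4, 24.4 and 1.98 RPM in WT. It made up most of the sum in each library. Col1a1 and Col1a2 had at most 3.68 RPM in any library, and Pdgfrb, Ccl19 and Pdpn had 0 counts in every library. The part of such cells in the results was not tested. In these bulk samples, fewer cells with an RNA and less of it per cell cannot be told apart.

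No member passed edgeR's test for a difference between genotypes. Of 10 members, 7 had enough counts to be tested, and 0 of them passed an adjusted p of 0.05 in edgeR's quasi-likelihood test over 4088 genes, where the share of all genes past that threshold was also 0%. Limma-voom and limma on log2(RPM + 1) likewise gave 0 members. At an unadjusted p under 0.05 there was 1 member, Relb, lower in MOG KO, as were 2.89% of all genes tested. A further 2.23% of genes were higher at that level, and 0 members. DESeq2 gave 3 of the 8 members for which it had an adjusted p, Relb and Nfkbib lower and Rel higher in MOG KO. Of the 4916 genes with an adjusted p in DESeq2, 9.52% were past the threshold as lower and 5.49% as higher in MOG KO.

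**Figure D2:**
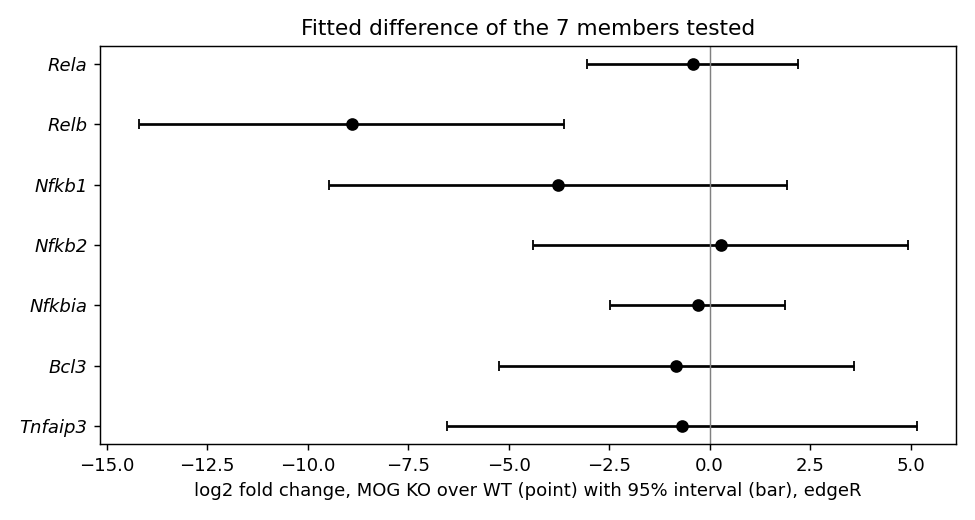
Log2 fold change of MOG KO over WT for the 7 members tested in edgeR, with its 95% interval. The interval of Relb runs from -14.19 to -3.61 and does not reach 0, but its adjusted p over all genes is 0.602, and the other 6 intervals include 0.

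Among the 4 subunits tested in edgeR, Relb, the partner of p52 in the alternative branch, had the largest log2 fold change. Its RPM was 0.231, 1.38 and 0.58 in MOG KO (1, 6 and 2 counts) and 378, 211 and 456 in WT (1027, 944 and 1608 counts). The groups did not overlap, and every MOG KO library lay under 2 RPM. The mean was 0.729 ± 0.587 RPM in MOG KO and 348 ± 125 RPM in WT (SD, n = 3 each), and the log2 fold change was -8.9 ± 2.29 (SE). In edgeR its adjusted p was 0.602, and without 1 library or under another scaling or filter it ran from 0.445 to 0.784. With a replicate block in edgeR it was higher than any of these. Limma-voom gave an adjusted p of 0.172 and DESeq2 0.00123. Relb was admitted to the test through its WT libraries alone, so it had to differ between genotypes in this table. Of the genes tested, 4.57% had all 3 MOG KO libraries below all 3 WT libraries, and 5.97% the reverse. Of the 1295 genes present in exactly 3 libraries, 53 (4.09%) were present in the 3 MOG KO libraries and 74 (5.71%) in the 3 WT libraries, as Relb was.

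The gene closest to Relb over the 6 libraries was Usp33, which encodes a deubiquitinase, at a root-mean-square difference of 0.44 on the log2(RPM + 1) scale. It had 0.231, 0.459 and 0.58 RPM in MOG KO and 389, 324 and 657 RPM in WT. The next was Gars, the glycyl-tRNA synthetase gene, at a difference of 0.53. Both were picked for their likeness to Relb over these 6 values, so they share its order of genotypes by that choice. The likeness is a description only.

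Nfkb2, which encodes the p100 precursor of p52, did not follow Relb. Its RPM was 338, 82.1 and 348 in MOG KO and 36.1, 605 and 1.98 in WT. It was thus present in all 3 MOG KO libraries, in which Relb was near 0, and near 0 in WT replicate 3, in which Relb was at its highest. The log2 fold change was 0.27 ± 2 (SE, 95% interval -4.39 to 4.94, adjusted p = 1 in edgeR). Its sign depended on which libraries were used, with -0.25 without WT replicate 1, -0.29 without WT replicate 3 and 3.74 without WT replicate 2. On the other strand, 6.52% of the exon bases of Nfkb2 overlap Psd, which had at most 1.47 RPM in any library, and 11.6% overlap AC114539.1, a noncoding RNA with no row in the count table.

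Rela, which encodes p65, the main activating subunit of the canonical branch, had 487, 50.9 and 409.8 RPM in MOG KO and 309, 407 and 476 RPM in WT. Its groups overlapped, and the highest library was 9.57 times MOG KO replicate 2, which was the lowest. The log2 fold change was -0.42 ± 1.13 (SE, 95% interval -3.05 to 2.21, adjusted p = 1 in edgeR) and 0.08 without MOG KO replicate 2. The genes closest to Rela were Brat1, at a root-mean-square difference of 0.36, and Smc4, at 0.4. Brat1, picked for this likeness, had 467, 54.1 and 342 RPM in MOG KO and 187, 457 and 615 RPM in WT, with the same low library.

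Nfkb1, which encodes the p105 precursor of p50, had 37, 0.229 and 2.32 RPM in MOG KO and 387, 34 and 86.2 RPM in WT. It was present in 1 MOG KO library and in all 3 WT libraries, and the groups overlapped only through MOG KO replicate 1 and WT replicate 2. The log2 fold change was -3.78 ± 2.45 (SE, 95% interval -9.48 to 1.92, adjusted p = 1 in edgeR). It was -7.02 without MOG KO replicate 1 and -2.3 without WT replicate 1. Gsk3b, a kinase gene, was closest to it, at a difference of 1.04, followed by Fam118b at 1.06.

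Rel, which encodes c-Rel, was read in MOG KO alone, at 35.6, 31.2 and 0 RPM (154, 136 and 0 counts), against 0 counts in each WT library. Against a floor of 3 counts over the WT group this is at least 85.4-fold higher in MOG KO, a bound on counting error only that leaves out the spread of the libraries. 2 libraries carried it, so Rel did not reach the 3 that the filter on low counts asks for and was not tested in edgeR. Without that filter its unadjusted p was 0.0504 and its adjusted p 0.449 in edgeR. DESeq2 gave an adjusted p of 0.0374, and edgeR 0.606 to 0.784 in the fits without 1 library that admitted it. The third MOG KO library had 0 counts, as the WT libraries did.

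The inhibitors begin with Nfkbia, which encodes IkBalpha, an inhibitor that NF-kB itself induces quickly. It was the member read most evenly, at 212, 368 and 429.8 RPM in MOG KO and 428, 298 and 459 RPM in WT. The highest library was 2.16 times the lowest, and the groups overlapped. The mean was 337 ± 112 RPM in MOG KO and 395 ± 85.6 RPM in WT (SD, n = 3 each). The log2 fold change was -0.3 ± 0.95 (SE, adjusted p = 1 in edgeR), with a 95% interval of -2.48 to 1.89 that still admits several-fold change either way. It stayed negative without each library in turn, from -0.51 to -0.03.

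Nfkbib, which encodes IkBbeta, had 0 counts in all 3 MOG KO libraries, against 112, 0 and 158 RPM in WT (305, 0 and 559 counts). WT replicate 2 was at 0 as well, so the groups touch. Against a floor of 3 counts over the MOG KO group the gene was at least 326-fold lower, a bound on counting error only. It was not tested in edgeR, and without the filter its unadjusted p was 0.0193 and its adjusted p 0.449. DESeq2 gave an adjusted p of 0.00705, and edgeR 0.606 to 0.784 in the fits without 1 library that admitted it. Its exons share 314 bases with Ccer2, which has no row in the count table, and 42 bases with Sirt2, both on the opposite strand. Sirt2 had 0.462, 248 and 284 RPM in MOG KO and 309.8, 295 and 1.13 RPM in WT. It was high in 3 libraries in which Nfkbib had 0 counts and in WT replicate 1, in which Nfkbib was read. In WT replicate 3 Nfkbib was read and Sirt2 was near 0. The sharing of reads between these genes was not tested.

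Nfkbie, which encodes IkBepsilon, was present in 1 library of each genotype. Its RPM was 0, 229 and 0 in MOG KO and 0.736, 163 and 0 in WT. The groups overlapped. It did not pass the filter on low counts, and without that filter its log2 fold change was 0.47 (adjusted p = 1 in edgeR). Nfkbie is also known as an inhibitor gene of B cells, and of the 5 B cell markers used here Cd79b was read in the same libraries, at 0, 130 and 0.58 RPM in MOG KO and 0, 205 and 0 RPM in WT. Ms4a1, another of them, was not, at 0, 0.229 and 0.58 RPM in MOG KO and 1.47, 0.447 and 87.3 RPM in WT. The 5 markers summed to 0 to 130 RPM in MOG KO and 1.84 to 206 RPM in WT. The defining markers Cd79a and Pax5 had 0 counts in every library. The part of such cells in the reads of Nfkbie was not tested.

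Bcl3, an unusual IkB protein that works in the nucleus with p50 or p52 dimers, had 0.462, 362 and 232 RPM in MOG KO and 211, 261 and 529 RPM in WT. The groups overlapped, with MOG KO replicate 1 alone near 0. The log2 fold change was -0.82 ± 1.89 (SE, 95% interval -5.23 to 3.58, adjusted p = 1 in edgeR), and ran from -1.59 without MOG KO replicate 2 to -0.22 without WT replicate 3. Gm16175, an antisense RNA with no row in the count table, overlaps 6.51% of its exon bases. Tnfaip3, which encodes A20, an enzyme that edits ubiquitin chains and damps the signal upstream of the IkB kinase, had 0.693, 10.1 and 570 RPM in MOG KO and 774, 185 and 1.42 RPM in WT. Each genotype held a library near 0 and a library above 500 RPM. Its log2 fold change was -0.69 ± 2.51 (SE, adjusted p = 1 in edgeR) and 1.04 without WT replicate 1 or -5.83 without MOG KO replicate 3.

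Divided by the length of their exons in GENCODE M21, the levels of the members could be set beside each other. The median over 6 libraries was highest for Nfkbia, at 247 RPM per kb (132 to 285), then Rela at 133 (16.6 to 159) and Bcl3 at 99.5 (0.187 to 214). It was 45.8 RPM per kb for Nfkb2, 27.3 for Relb, 13.5 for Tnfaip3, 2.94 for Nfkb1, 0.121 for Nfkbie and 0 for Rel and Nfkbib. The ranges over libraries of neighbours in this order overlapped throughout. The gene models that the authors counted on are not given and may differ in length.

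Which members made up the NF-kB reads differed from library to library. MOG KO replicate 1 held Rela, Nfkb2 and Nfkbia with little Bcl3 or Tnfaip3, and MOG KO replicate 2 held Bcl3, Nfkbia and Nfkbie with little Rela. The 10 members summed to 1111, 1135 and 1992 RPM in MOG KO and 2637, 2163 and 2168 RPM in WT. The 5 subunits summed to 898, 166 and 761 RPM in MOG KO and 1110, 1257 and 1020 RPM in WT. These sums did not overlap between genotypes, but without Relb they did, at 898, 164 and 760.2 RPM for the subunits in MOG KO and 733, 1046 and 564 RPM in WT. No test was made of these sums, since the members were chosen with earlier results known.

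**Figure D3:**
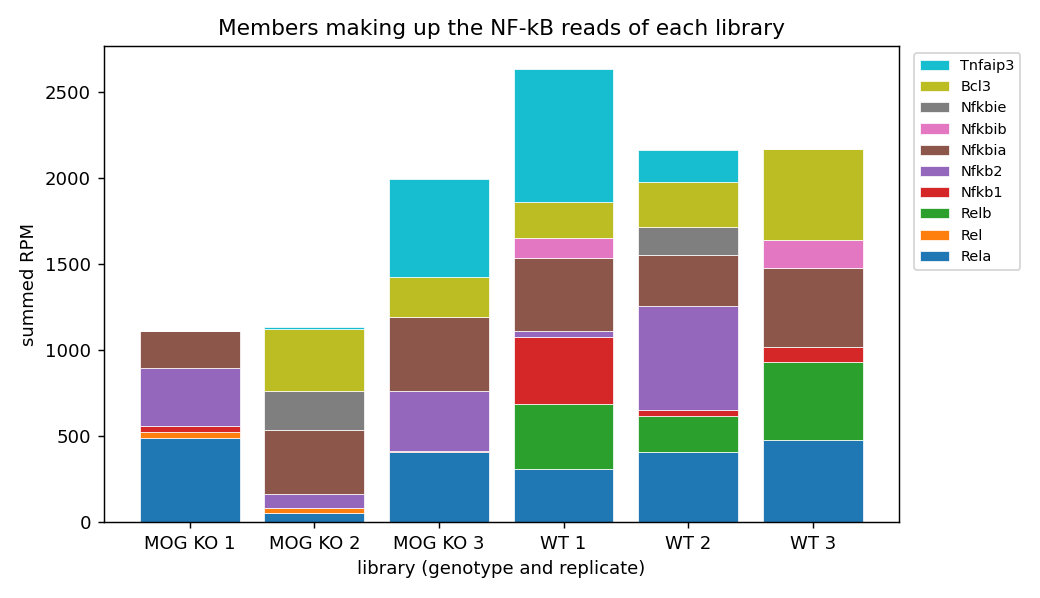
Summed RPM of the 10 members in each library, stacked by gene from Rela at the bottom to Tnfaip3 at the top. RPM is not divided by gene length here, so the height of a segment compares libraries and not genes, and the green Relb segment is visible in the 3 WT bars alone.

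The rest of the pathway had no gene past the threshold in edgeR either. Among 28 kinases and adaptors upstream of NF-kB, 13 were tested and 0 passed in edgeR or limma-voom, with 0 at an unadjusted p under 0.05. DESeq2 gave a p-value to 19 of the 28 and called 2 of them, neither among the 13. Over the whole table it called 738 of the 8737 genes with a p-value. Of all genes with an adjusted p in DESeq2, it called 5.49% as higher and 9.52% as lower in MOG KO. Of the 13, 9 were higher and 4 lower in MOG KO by value (69.2% positive, against 52.1% of all genes tested), with a median log2 fold change of 0.28 beside 0.06 for all genes. Sharpin, a subunit of the complex that builds linear ubiquitin chains, had 295, 36.7 and 43.5 RPM in MOG KO and 2.21, 21.5 and 0.283 RPM in WT (log2 fold change 3.94 ± 2.35, adjusted p = 1 in edgeR). Traf2, an adaptor of TNF receptors, had 412, 494 and 393 RPM in MOG KO and 267, 0.447 and 0.567 RPM in WT (2.27 ± 2.33). In these 2 of the 13 tested genes all MOG KO libraries lay above all WT libraries, as in 5.97% of all genes tested. The value of Traf2 ran from 1.7 without WT replicate 2 to 9.58 without WT replicate 1. That of Sharpin ran from 2.42 without MOG KO replicate 1 to 6.6 without WT replicate 2. Tab2, which links ubiquitin chains to the kinase TAK1, had 3.24, 2.52 and 251 RPM in MOG KO and 92.7, 702 and 938 RPM in WT (-2.82 ± 2). Its value ran from -7.74 without MOG KO replicate 3 to -2.19 without WT replicate 3.

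The genes DESeq2 called in that list are named after their values were seen, and neither was tested in edgeR. Ikbkg, the regulatory subunit of the IkB kinase, had 352, 672 and 0.869 RPM in MOG KO and 0.736, 0 and 0.283 RPM in WT (adjusted p = 0.0036 in DESeq2). Myd88, the adaptor of Toll-like and interleukin 1 receptors, had 0 counts in MOG KO and 244, 274 and 0 RPM in WT (adjusted p = 0.00555 in DESeq2). In each, 2 libraries of 1 genotype carried the reads. Map3k14, the kinase that starts the alternative branch, had 0.462, 0 and 13.3 RPM in MOG KO and 1.1, 0.447 and 143 RPM in WT. This gene too is named after its values were seen. It was not tested in edgeR and DESeq2 did not call it.

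Among 26 other inhibitors and nuclear regulators of NF-kB, 14 were tested and 0 passed in edgeR or limma-voom, with 0 at an unadjusted p under 0.05. By value 5 were higher and 9 lower in MOG KO (35.7% positive, against 52.1% of all genes tested), with a median log2 fold change of -0.39. The list also holds Btrc, Cul1 and Skp1a, parts of a ubiquitin ligase that acts on IkB proteins and so promotes NF-kB. Of these, Cul1 (log2 fold change -0.79) and Skp1a (-1.27) were tested and are among the 9. Nkap, a nuclear protein first described as an NF-kB activator, had 0.693, 26.4 and 0.869 RPM in MOG KO and 3.31, 0.224 and 804 RPM in WT. Its log2 fold change of -5.02 ± 3.28 rested on WT replicate 3 and was 2.42 without it. Rnf11, a partner of A20, never exceeded 39 RPM (-3.25 ± 2.16, and -1.79 without WT replicate 1). Nfkbid, which encodes IkBNS, a nuclear IkB protein that promotes Foxp3 expression in developing Tregs, had 303, 313 and 295 RPM in MOG KO and 3.31, 198 and 1.7 RPM in WT. Its log2 fold change was 2.19 ± 2.14 (adjusted p = 1 in edgeR), 1.61 without WT replicate 1 and 6.86 without WT replicate 2. It was the 1 tested gene of this list with all MOG KO libraries above all WT libraries (5.97% of all genes tested). Pias1, named for lying wholly below (4.57% of all genes tested), had 236, 293 and 1.74 RPM in MOG KO and 587, 488 and 375 RPM in WT. Of all genes with an adjusted p in DESeq2, 9.52% were called as lower. In this list it gave a p-value to 14 of the 26 and called 1 of them, as lower. That gene, Nfkbiz, another nuclear IkB gene, is named after its values were seen and was not tested in edgeR. It had 0, 0.229 and 0.869 RPM in MOG KO and 279, 235 and 0 RPM in WT (adjusted p = 0.0147 in DESeq2).

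Among 36 genes known as NF-kB targets, 16 were tested and 0 passed in edgeR or limma-voom, with 0 at an unadjusted p under 0.05. DESeq2 gave a p-value to 24 of the 36. It called 1 of them as lower (Nfkbiz again, which is on both lists), beside 9.52% of all genes with an adjusted p. By value 6 were higher and 10 lower (37.5% positive, against 52.1% of all genes tested), with a median log2 fold change of -0.29. 6 of the 36 were present in every library (Icam1, Irf1, Junb, Ltb, Il2ra and Tap1), and 11 in none. Junb, a component of the AP-1 factor, had 431, 375 and 254 RPM in MOG KO and 542, 429.7 and 535 RPM in WT (log2 fold change -0.58 ± 0.76). Cd69, an early activation antigen, had 0.462, 0 and 45.2 RPM in MOG KO and 2.58, 168 and 415 RPM in WT (-3.78 ± 3.01). Its value ran from -9.72 without MOG KO replicate 3 to -2.46 without WT replicate 3. Sod2, a mitochondrial superoxide dismutase, had 129, 141 and 0.869 RPM in MOG KO and 894, 5.81 and 123 RPM in WT (-1.97 ± 2.28, and 0.36 without WT replicate 1).

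Among 23 receptors that signal to NF-kB, 12 were tested and 0 passed in edgeR, limma-voom or DESeq2, with 0 at an unadjusted p under 0.05. By value 3 were higher and 9 lower (25% positive, against 52.1% of all genes tested), with a median log2 fold change of -0.29. The receptors present in every library were Tnfrsf1b, Tnfrsf4, Tnfrsf18, Cd27 and Cd28. Tnfrsf1b, which encodes TNF receptor type 2, had 812, 1032 and 937 RPM in MOG KO and 1578, 685 and 942 RPM in WT. Its groups overlapped, and its log2 fold change was -0.26 ± 0.39 (SE, 95% interval -1.18 to 0.66). Il18r1, a chain of the interleukin 18 receptor, had 3.24, 40.8 and 0.58 RPM in MOG KO and 259, 135 and 0.283 RPM in WT (-3.12 ± 2.64). Its value ran from -6.11 without MOG KO replicate 2 to -2.15 without WT replicate 1. Tnfrsf13b, which encodes TACI, had 0, 0 and 64.6 RPM in MOG KO and 10.3, 46.5 and 189.6 RPM in WT. Its log2 fold change of -2.04 ± 2.95 was -11.47 without MOG KO replicate 3 and -0.38 without WT replicate 3. Adjusted p was 1 in edgeR for each gene named in these lists and tested.

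**Figure D4:**
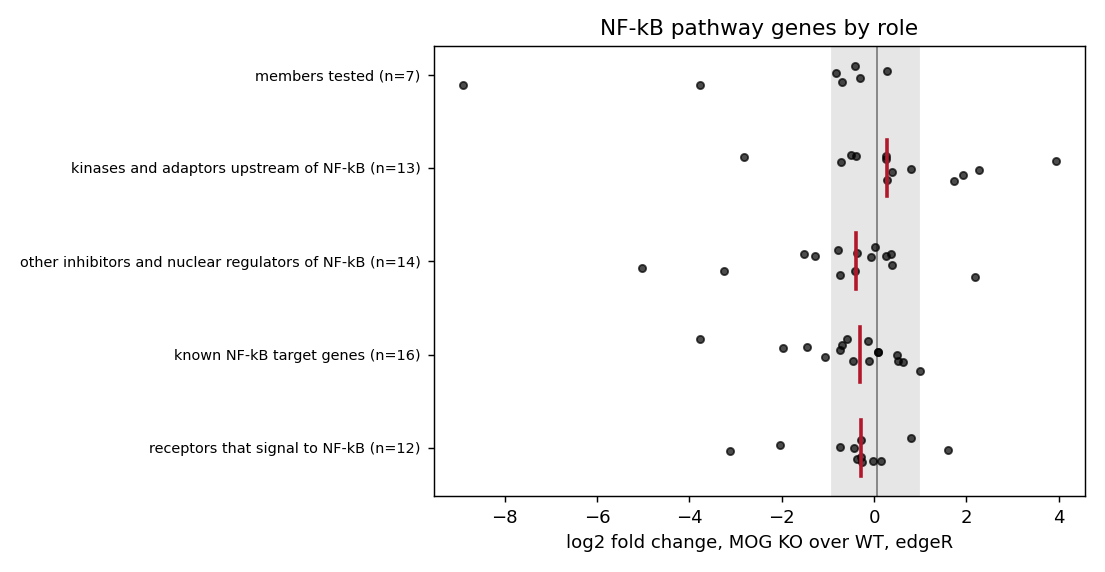
Log2 fold change of MOG KO over WT for the tested genes of each role, 1 point per gene, with the list median in red. The grey band spans the middle of all 4088 genes tested, from the 25th to the 75th percentile (-0.92 to 0.97), with their median of 0.06 as a line, and the 4 list medians lie inside it.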

How the data were processed

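The authors deposited exon read counts per gene, as whole numbers and not normalised, and a table of reads-per-million (RPM) values. Each RPM column was the count column rescaled by its own total (largest difference 4.5e-11). STAR 2.3.1, R 3.2.2 and build mm10 are named per the submitters' processing notes. No source used here gives the counting tool, gene models, strand setting or handling of multiply mapped reads, so overlapping genes may share reads.

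The test was edgeR 4.0.16 (R 4.3.3) on counts, with filterByExpr (4088 genes kept), TMM scaling, robust quasi-likelihood fit on genotype, and Benjamini-Hochberg adjustment over all genes at 0.05. SE is the log2 fold change over the square root of F. Alternatives were DESeq2 1.42.0, limma 3.58.1, other scalings, filters and pseudocounts, a replicate block, and leaving out each library. Steps were tested on simulated data whose libraries scattered far less than these, where the median SE was 2.42. That check therefore does not show how the tests behave on these libraries.

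The members, gene lists and tests were chosen with earlier results of these data known. All members are named, as are the genes of each list past the threshold or the 3 of smallest p, Foxp3, Il2ra and Cd4, the 2 genes closest to Rela, Relb and Nfkb1, and genes whose exons overlap a member. Values of Ikbkg, Myd88, Map3k14, Nfkbiz and Pias1 are given besides, and these genes were picked after their values were seen. Il2ra had a log2 fold change of -0.14 ± 0.48 and Cd4 of 0.61 ± 0.67 (adjusted p = 1 in edgeR). 1 marker gene is not reported here.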

Additional observations from a re-analysis of the deposited data

How the results depend on the processing

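No gene or member passed in edgeR or limma under the other scalings, filters and pseudocounts or without any 1 library. DESeq2 put 738 genes past the threshold, among them 3 members, 2 upstream kinases and adaptors, and Nfkbiz, which counts as 1 other inhibitor and as 1 target gene. The cause was not tested. Leaving out each library in turn, the log2 fold change changed sign for Rela (-0.82 to 0.08), Nfkb2 (-0.29 to 3.74), Tnfaip3 (-5.83 to 1.04), Nkap (-8.61 to 2.42), Sod2 (-2.49 to 0.36), Tnfrsf1b (-0.49 to 0.11, and 0.2 in limma-voom), Foxp3 (-0.37 to 1.03) and Il2ra (-0.38 to 0.16). It turned without WT replicate 1 for Nfkb2, Tnfaip3, Sod2 and Tnfrsf1b, without WT replicate 3 for Nfkb2, Nkap and Foxp3, and without MOG KO replicates 2 and 3 for Rela and Il2ra in that order. With fewer libraries, 442 to 590 genes had MOG KO above WT without overlap and 413 to 676 below, by construction more than with 6. Members were present in 17 values in MOG KO and 22 in WT at 3 RPM, and in 16 and 22 at 30 RPM. Same-numbered libraries did not deviate together (correlations -0.023, -0.003 and -0.018), and with a replicate block 0 genes and 0 members passed. The spread between libraries, with a median SE of 2.42 over all genes, limits these comparisons.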
